A study of Mus musculus with 9 samples.

Results

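The genes described here are 43 genes of the macrophage and osteoclast lineage, of which 36 are genes of macrophages, many of them of tissue-resident macrophages, and 7 are genes of osteoclasts. They were taken by symbol from the 40213 symbols of each count file, and all 43 were found. RNA was sequenced from primary calvarial pre-osteoblasts of wild-type ICR mouse pups aged 3 days, infected on day 3 of culture with a control virus (Ad-C) or an adenovirus that expresses Hif1a (Ad-Hif1a) or Hif2a (Ad-Hif2a, gene symbol Epas1), with 3 libraries per group. All 3 groups received an adenovirus, were kept under normoxia in medium with 10% serum, 50 μg/ml L-AA (ascorbic acid) and 5 mM β-Gp (β-glycerophosphate), which drives osteogenic differentiation, and were harvested on day 6. The cells came from digested calvarial bone with no sort of leukocytes in the methods, and no uninfected cells are among the groups. The study's methods take n as independent experiments or mice, and the labels do not say which of these a library stands for, so p-values measure the spread between these libraries.

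Macrophages and osteoclasts descend from a shared myeloid precursor. Macrophage colony-stimulating factor (Csf1) and Il34 act through the receptor Csf1r to keep precursors and macrophages alive, under the transcription factor PU.1 (Spi1). Osteoblast-lineage cells display RANKL (Tnfsf11), which binds RANK (Tnfrsf11a) on the precursor and drives fusion into osteoclasts through Nfatc1, while osteoprotegerin (Tnfrsf11b) is a decoy for RANKL. Bone also holds resident macrophages, known as osteomacs, and cultures digested from calvaria usually keep some of them among the osteoblasts.

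Levels are given as CPM, the count of a gene scaled to the size of its library with TMM factors, and log2 fold changes come with a standard error (SE). A gene is said to have risen or fallen where the quasi-likelihood test of edgeR gave a Benjamini-Hochberg adjusted p under 0.05, computed across all 14413 genes that passed a filter on low counts. Library totals were 14372589 to 18623403 counts, so that a single count stood for 0.0535 to 0.0728 CPM. The vectors were seen in the counts. Hif1a stood at 193, 190.3 and 186 CPM in the Ad-C libraries and at 1240.3, 1929.6 and 2325 CPM with Ad-Hif1a, and Epas1 at 47.1, 41.9 and 48.8 CPM with Ad-C and 1996, 2181 and 823 CPM with Ad-Hif2a. Each vector group also held more of the other gene than Ad-C, with Epas1 at 407, 486 and 679 CPM with Ad-Hif1a and Hif1a at 575, 585 and 447 CPM with Ad-Hif2a. All 12 osteoblast markers were present. They summed to 70886 ± 2777 CPM with Ad-C (SD, n = 3), while Ad-Hif1a gave 61837 ± 969 CPM and Ad-Hif2a 57442 ± 4625 CPM. Of these, 1 rose and 3 fell with Ad-Hif1a, and 1 rose and 5 fell with Ad-Hif2a, among them the osteoblast transcription factor Sp7, which fell by 1.25 (adjusted p = 0.00837, SE 0.20) and 1.13 (adjusted p = 0.0101, SE 0.20) on the log2 scale.

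Below, Ad-Hif1a replicate 1 and Ad-Hif2a replicate 3 are called the libraries that stand apart. They held the least of their own vector's gene, and mitochondrial transcripts made up 2.95% and 2.82% of their counts against 3.69 to 6.37% in the other 7 libraries. Across genes, the deviations of Ad-Hif1a replicate 1 and Ad-Hif2a replicate 3 from their group means had a Pearson correlation of 0.61. Those of Ad-Hif1a replicate 3 and Ad-Hif2a replicate 2 had a like value, 0.54. Ad-Hif1a replicate 1 with Ad-Hif2a replicate 2, and Ad-Hif1a replicate 3 with Ad-Hif2a replicate 3, both gave -0.57. Deviations within a group cancel out, so these values depend on each other and only describe the libraries. Counts of members are therefore given with and without this pair of libraries, a choice made after the data were seen.

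The summed level of the 36 macrophage members was far lower in every vector library than in the control libraries. That of the 7 osteoclast members, most of it Ctsk and Acp5, was close to its control level. The sums are described here without a test. The macrophage members summed to 4630, 4916 and 4585 CPM with Ad-C, 1966, 2099 and 1955 CPM with Ad-Hif1a and 1965, 2268 and 2159 CPM with Ad-Hif2a. The Ad-Hif1a mean was 42.6% and the Ad-Hif2a mean 45.2% of the Ad-C mean, and no vector library came near an Ad-C library. Lyz2, the macrophage lysozyme, carried 49.7 to 58.8% of this sum, and without it the sums stood at 38.4% and 42.1%. The 12 defining macrophage markers, all of them members, summed to 1016 to 1066 CPM in the Ad-C libraries. The Ad-Hif1a libraries lay at 416 to 481 CPM and the Ad-Hif2a libraries at 411 to 597 CPM, with the highest vector value in Ad-Hif2a replicate 3. None of the 12 was at 0 in any library. The osteoclast members summed to 245, 252 and 249 CPM with Ad-C, 226, 241 and 226 CPM with Ad-Hif1a and 239, 237 and 230 CPM with Ad-Hif2a, which is 92.9% and 94.6% of the Ad-C mean. Ctsk, the protease cathepsin K, made up much of this sum, and without it the sums stood at 78.0% and 81.7%. With Ad-C, Ctsk averaged 119 CPM and Acp5 64.2 CPM of a mean sum of 248 CPM. The sum thus says little of the less abundant osteoclast members, which are given gene by gene below. The cells of the culture that made Ctsk and Acp5 RNA were not identified, so the sum is not a measure of osteoclasts. Skeletal muscle markers were lower beside the macrophage members, with sums of 61.8 to 77.6 CPM in the Ad-C libraries, 9.38 to 11.4 CPM (Ad-Hif1a) and 4.78 to 8.23 CPM (Ad-Hif2a), where 2 of 4 tested fell and 1 rose in each comparison. The part of other cells in the lower macrophage level was not tested. In bulk RNA, fewer cells of a type and less RNA of a gene per cell cannot be told apart.

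**Figure D1:**
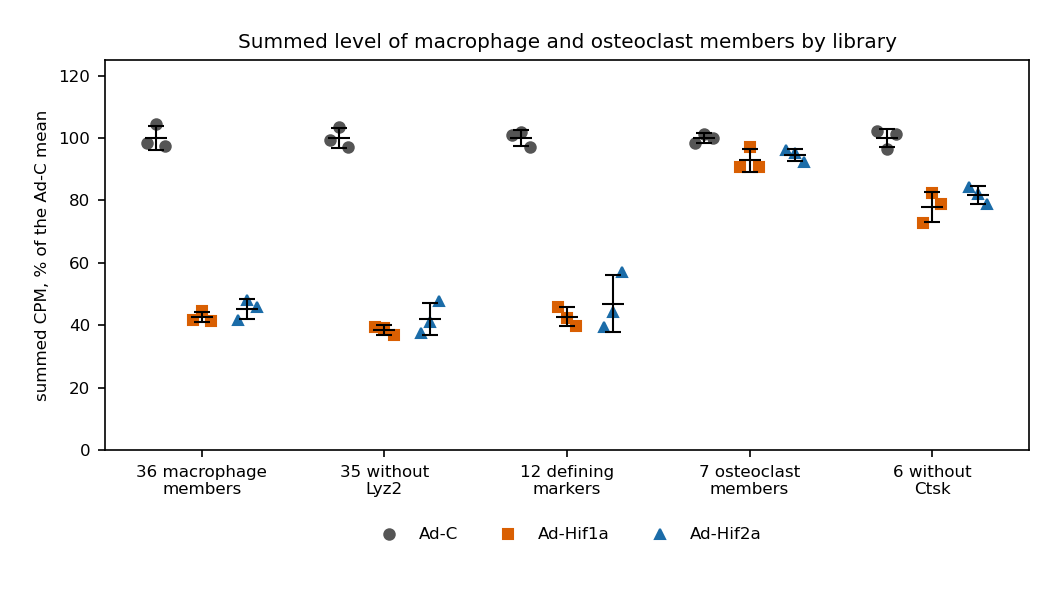
Summed TMM-scaled CPM of gene groups in each library, as a percentage of the Ad-C mean of the same group. Points are libraries, horizontal marks are means and bars are SDs over 3 libraries; the macrophage members average 42.6% and 45.2% with the vectors, and the osteoclast members 92.9% and 94.6%.

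With Ad-Hif1a, 22 of the 34 macrophage members tested fell and 0 rose, and with Ad-Hif2a 19 fell and 2 rose, with median log2 fold changes of -1.26 and -1.18. Of all genes tested, 11.3% were called with Ad-Hif1a (5.22% lower and 6.04% higher) and 15.6% with Ad-Hif2a (7.72% lower and 7.87% higher), with medians of 0.01 in either comparison. The 3 Ad-C libraries serve as control for both vectors, so the comparisons are not independent of each other. The vector libraries all lay below the Ad-C libraries for 26 of the 34 with Ad-Hif1a (25.9% of all genes tested) and for 24 with Ad-Hif2a (25.5%), and all above them for 1 (24.5%) and 2 (24%). Of the 5 osteoclast members tested, 1 fell and 0 rose in each comparison, with medians of -0.14 and -0.03. All vector libraries lay below the Ad-C libraries for 3 of these 5 with Ad-Hif1a (Acp5, Nfatc1 and Atp6v0d2) and for 2 with Ad-Hif2a (Nfatc1 and Atp6v0d2), where they lay above them for 1 (Ctsk). Without the pair of libraries that stand apart, the fit called 26 macrophage members lower and 1 higher with Ad-Hif1a, and 26 lower and 2 higher with Ad-Hif2a, where 27.6% and 28.7% of all genes tested were called. Leaving out one of these libraries lowered the number called with Ad-Hif1a from 22 to 8, 10 and 10 (Ad-C replicates 1, 2 and 3 in turn), 14 (Ad-Hif1a replicate 1) or 8 (Ad-Hif1a replicate 2). With Ad-Hif2a it lowered the number from 21 to 10, 13 and 13 for the same Ad-C libraries and to 13 for Ad-Hif2a replicate 1. The share of all genes called was lower as well, at 2.99% with Ad-Hif1a and 4.67% with Ad-Hif2a once Ad-C replicate 1 was left out. Every member called kept its sign in these fits.

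**Figure D2:**
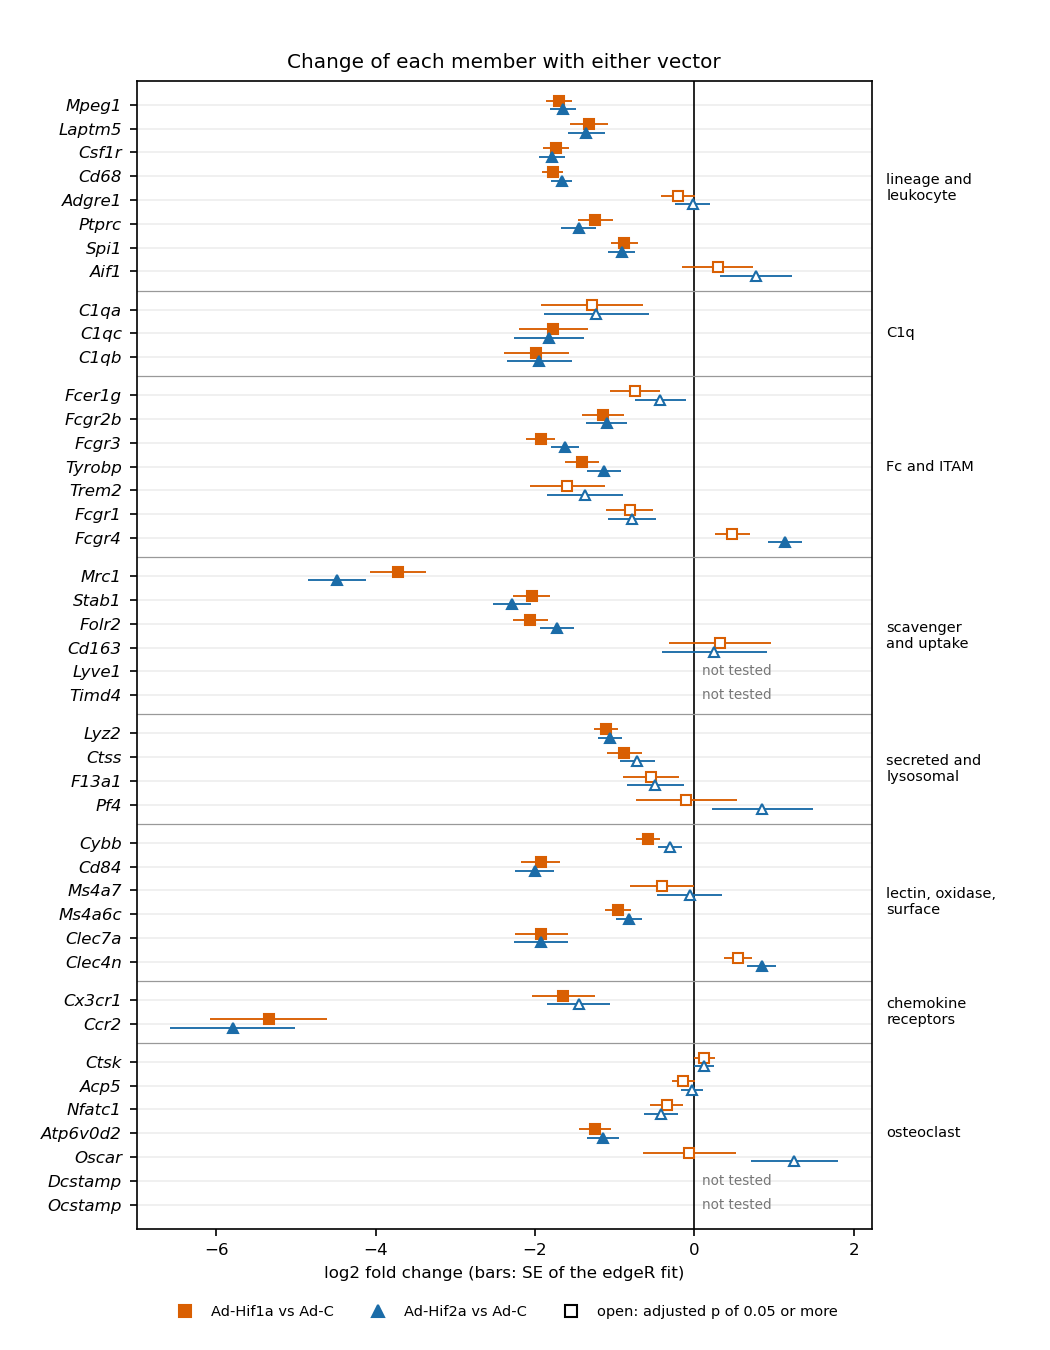
Log2 fold change of each member with Ad-Hif1a (squares) and Ad-Hif2a (triangles) against Ad-C, by role group. Bars are the SE derived from the F statistic of the edgeR test, filled symbols have an adjusted p under 0.05, and 4 members were not tested. The macrophage members lie mostly between -2 and 0, Mrc1 and Ccr2 lie lower, and the osteoclast members lie near 0 apart from Atp6v0d2 and Oscar.

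Promoter sequences were read because most macrophage members moved together. RefSeq promoters (GRCm38.p6, an earlier build than that of the counts) of 300 bases, from 250 before to 50 after a transcript start, were found for 32 of the 43 members, in 40 windows. Entries for Adgre1, Atp6v0d2, C1qa, Clec4n, Csf1r, Dcstamp, Lyve1, Nfatc1, Ocstamp, Spi1 and Tyrobp were not among them. Each window was searched on both strands for GAGGAA, the core that PU.1 prefers, and for ACGTG and GCGTG, the forms of the core that HIF proteins bind; no match of one of these can hold another. GAGGAA was in 22 of 35 macrophage windows (62.9%), in 2 of 5 osteoclast windows (40%) and in 28.3% of all 32851 windows. Counted by gene, with any window of a gene, it was in 19 of 29 macrophage genes (65.5%) and 2 of 3 osteoclast genes (66.7%), as Acp5 has 3 windows without it. ACGTG was in 2 of the 35 macrophage windows (5.71%) against 19.6% of all windows, and GCGTG in 6 (17.1%) against 32.4%. Of the genes with a window, 10 of 16 that fell with both vectors and 8 of 11 called with neither held GAGGAA. A match of letters is not a site, and these shares say nothing of binding.

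The 250 bases before the start of 5 members are shown, 5′ to 3′ on the strand of the gene, with GAGGAA or its reverse complement in capitals. They are Mrc1, Stab1 and C1qb, which fell deeply, Fcgr4, which rose with Ad-Hif2a, and Ctsk, which passed the test in neither comparison.
Mrc1, chr2:14229164-14229413, forward strand: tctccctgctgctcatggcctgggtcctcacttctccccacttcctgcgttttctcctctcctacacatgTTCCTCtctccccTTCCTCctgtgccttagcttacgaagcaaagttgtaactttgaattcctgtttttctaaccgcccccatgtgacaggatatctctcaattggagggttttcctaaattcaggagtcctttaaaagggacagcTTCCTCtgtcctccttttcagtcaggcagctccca
Stab1, chr14:31168642-31168891, reverse strand: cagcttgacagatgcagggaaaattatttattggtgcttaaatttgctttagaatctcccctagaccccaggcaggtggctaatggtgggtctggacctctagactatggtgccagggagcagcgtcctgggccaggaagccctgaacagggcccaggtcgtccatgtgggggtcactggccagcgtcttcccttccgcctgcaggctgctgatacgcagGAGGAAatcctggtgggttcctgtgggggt
C1qb, chr4:136886201-136886450, reverse strand: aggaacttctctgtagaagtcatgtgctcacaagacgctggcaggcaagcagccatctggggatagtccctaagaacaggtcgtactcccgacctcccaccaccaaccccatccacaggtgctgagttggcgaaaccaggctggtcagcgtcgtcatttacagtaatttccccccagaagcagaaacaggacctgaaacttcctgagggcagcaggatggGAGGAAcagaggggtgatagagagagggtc
Fcgr4, chr1:171018676-171018925, forward strand: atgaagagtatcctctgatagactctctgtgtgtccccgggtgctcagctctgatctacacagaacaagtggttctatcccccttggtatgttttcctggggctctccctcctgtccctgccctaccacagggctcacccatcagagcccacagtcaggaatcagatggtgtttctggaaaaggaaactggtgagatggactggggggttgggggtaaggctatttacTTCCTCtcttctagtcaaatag
Ctsk, chr3:95498960-95499209, forward strand: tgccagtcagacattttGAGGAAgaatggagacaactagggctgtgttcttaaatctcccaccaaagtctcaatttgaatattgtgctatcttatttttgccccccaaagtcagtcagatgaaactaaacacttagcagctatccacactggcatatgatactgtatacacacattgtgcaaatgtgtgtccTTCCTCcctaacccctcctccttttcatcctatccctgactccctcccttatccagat
Mrc1 holds 3 such matches, which begin 180, 167 and 35 bases before the start. Stab1 and C1qb each hold 1, 30 bases before the start, Fcgr4 holds 1, 22 bases before it, and Ctsk holds 2, 233 and 58 bases before it. These 5 were chosen among members that hold GAGGAA. Ccr2, Folr2, Mpeg1, Lyz2, Fcgr2b and Ms4a6c, which fell with both vectors, held none in their windows. Of the 5 shown, 0 held ACGTG or GCGTG in its 300 bases.

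Among the lineage factor, receptors and common leukocyte genes, 6 of 8 fell with each vector. Csf1r, the CSF-1 receptor on which macrophages depend, stood at 147, 156 and 149 CPM with Ad-C, 42.0, 44.1 and 49.5 CPM with Ad-Hif1a and 36.9, 53.2 and 42.0 CPM with Ad-Hif2a. The vector libraries lay far below the Ad-C libraries, and the log2 fold changes were -1.74 (adjusted p = 0.000952, SE 0.16) with Ad-Hif1a and -1.79 (adjusted p = 0.000672, SE 0.16) with Ad-Hif2a. Cd68, a lysosomal glycoprotein of macrophages, was as even among replicates, at 153, 141 and 146 CPM with Ad-C, 44.6, 44.1 and 39.5 CPM with Ad-Hif1a and 44.9, 46.8 and 46.9 CPM with Ad-Hif2a. It fell by 1.78 (adjusted p = 0.000465, SE 0.14) and 1.67 (adjusted p = 0.00045, SE 0.14) on the log2 scale. Mpeg1, which encodes the pore-forming perforin-2, stood at 250.2, 260.5 and 253 CPM with Ad-C, 72.1, 81.9 and 80.5 CPM with Ad-Hif1a and 86.0, 92.5 and 65.8 CPM with Ad-Hif2a, with log2 fold changes of -1.70 (adjusted p = 0.00105, SE 0.16) and -1.65 (adjusted p = 0.000968, SE 0.16). Spi1, the gene of PU.1, fell less in size, by 0.88 (adjusted p = 0.018, SE 0.17) and 0.91 (adjusted p = 0.0127, SE 0.17). The common leukocyte genes Ptprc (CD45) and Laptm5 had log2 fold changes of -1.24 and -1.32 with Ad-Hif1a and -1.45 and -1.35 with Ad-Hif2a, with adjusted p from 0.00573 to 0.0133.

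A pair of genes in this group passed the test in neither comparison. Adgre1, which encodes the macrophage surface protein F4/80, stood at 114, 124 and 114 CPM with Ad-C, 80.9, 108 and 115 CPM with Ad-Hif1a and 132, 131 and 83.8 CPM with Ad-Hif2a. All groups overlapped, and the log2 fold changes were -0.21 (adjusted p = 0.571, SE 0.22) and -0.02 (adjusted p = 0.945, SE 0.22), with 95% intervals of -0.72 to 0.31 and -0.54 to 0.49. Aif1, the actin-binding protein IBA1, stood at 6.13, 7.40 and 5.93 CPM with Ad-C, 9.86, 8.03 and 5.59 CPM with Ad-Hif1a and 7.14, 7.55 and 20.5 CPM with Ad-Hif2a, where only Ad-Hif2a replicate 3 lay far from the rest. The ratio of counts between Adgre1 and Csf1r in the same library does not depend on the scaling of libraries. It was 0.764 to 0.793 with Ad-C and lay above that range in all vector libraries, at 1.93 to 2.45 (Ad-Hif1a) and 2.00 to 3.58 (Ad-Hif2a), while that of Cd68 to Csf1r was 0.903 to 1.04, 0.799 to 1.06 and 0.879 to 1.22. These pairs were picked after their values were seen. The ratio of Adgre1 differed between groups beyond the range of the libraries, whereas that of Cd68 overlapped.

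The scavenger and uptake receptors, which take up glycoproteins, lipoproteins and dying cells in resident macrophages, held the member that fell most among those above 10 CPM in the control libraries. Mrc1, the mannose receptor CD206, whose promoter is printed above with that of Stab1, stood at 202, 215 and 197 CPM with Ad-C, 11.7, 17.0 and 18.4 CPM with Ad-Hif1a and 7.73, 16.1 and 5.32 CPM with Ad-Hif2a. The log2 fold changes were -3.72 (adjusted p = 0.00107, SE 0.35) with Ad-Hif1a and -4.48 (adjusted p = 0.000485, SE 0.36) with Ad-Hif2a. Its count relative to that of Csf1r was 1.33 to 1.38 in the Ad-C libraries but 0.278 to 0.385 (Ad-Hif1a) and 0.127 to 0.303 (Ad-Hif2a) in the others, so it was lower relative to Csf1r in every vector library. Stab1, the scavenger receptor stabilin-1, stood at 194, 212 and 208 CPM with Ad-C, 48.9, 52.2 and 47.6 CPM with Ad-Hif1a and 25.8, 56.9 and 47.1 CPM with Ad-Hif2a, with log2 fold changes of -2.04 (adjusted p = 0.00253, SE 0.24) and -2.29 (adjusted p = 0.00136, SE 0.24). Folr2, a folate receptor of resident macrophages, was low in all groups, at 9.22, 9.76 and 8.34 CPM with Ad-C, 2.61, 2.15 and 1.80 CPM with Ad-Hif1a and 2.54, 2.80 and 2.91 CPM with Ad-Hif2a, and fell by 2.06 (adjusted p = 0.00169, SE 0.22) and 1.72 (adjusted p = 0.00251, SE 0.22). Cd163, the haemoglobin scavenger receptor, had 3 to 25 counts per library, and its log2 fold changes of 0.33 and 0.25 had 95% intervals of -1.18 to 1.83 and -1.30 to 1.80. Its value with Ad-Hif2a was 0.86 (adjusted p = 0.289) without Ad-Hif2a replicate 3. Lyve1, a hyaluronan receptor, and Timd4, a receptor for phosphatidylserine on dying cells, missed the filter on low counts. Each had 4 counts over the Ad-C libraries, Lyve1 had 2 over the Ad-Hif1a libraries and 0 over the Ad-Hif2a libraries, and Timd4 had 0 in all vector libraries. At this depth no difference was detectable for either gene.

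The chains of C1q, the recognition protein of the classical complement pathway, are made mainly by macrophages, and 2 of 3 fell with each vector. C1qa stood at 95.2, 93.5 and 94.0 CPM with Ad-C, 59.4, 32.5 and 21.6 CPM with Ad-Hif1a and 18.2, 23.1 and 96.6 CPM with Ad-Hif2a. Ad-Hif2a replicate 3 was level with the Ad-C libraries while its fellow replicates were far lower, and C1qa did not pass the test, with log2 fold changes of -1.29 (adjusted p = 0.252, SE 0.64) and -1.23 (adjusted p = 0.223, SE 0.66). C1qb, at 72.9, 71.3 and 67.4 CPM with Ad-C, 22.0, 17.7 and 13.2 CPM with Ad-Hif1a and 12.03, 12.7 and 33.1 CPM with Ad-Hif2a, fell by 1.98 (adjusted p = 0.0226, SE 0.40) and 1.95 (adjusted p = 0.0205, SE 0.41). C1qc, at 90.9, 91.2 and 85.3 CPM with Ad-C, 34.4, 23.7 and 19.4 CPM with Ad-Hif1a and 13.3, 21.5 and 44.3 CPM with Ad-Hif2a, fell by 1.77 (adjusted p = 0.0409, SE 0.43) and 1.82 (adjusted p = 0.0317, SE 0.44), calls lost in 8 and 6 of 28 alternative fits. All 3 chains were highest, within each vector group, in Ad-Hif1a replicate 1 and Ad-Hif2a replicate 3. Without this pair of libraries C1qa fell with both vectors, by 1.84 (adjusted p = 1.09e-07) and by 2.26 (adjusted p = 7.84e-09). Without Ad-Hif2a replicate 3 alone, the falls of C1qb and C1qc with Ad-Hif2a were 2.62 (adjusted p = 1.43e-06) and 2.47 (adjusted p = 2.88e-05). The libraries left out held the highest values of their groups, and the pair was set aside after the data were seen. Deeper falls without them were thus fixed in advance and add no support.

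Fc receptors bind antibody, and Tyrobp and Fcer1g are the ITAM adaptors through which these and other receptors, such as Trem2, signal. Of the 7 genes of this group, 3 fell with each vector and 1 rose with Ad-Hif2a. Fcgr3, a low-affinity activating receptor, stood at 54.2, 51.4 and 47.1 CPM with Ad-C, 13.03, 12.7 and 14.3 CPM with Ad-Hif1a and 20.5, 16.1 and 13.4 CPM with Ad-Hif2a and fell by 1.93 (adjusted p = 0.00101, SE 0.18) and 1.62 (adjusted p = 0.0016, SE 0.18). Fcgr2b, the inhibitory receptor, had log2 fold changes of -1.15 (adjusted p = 0.032, SE 0.26) and -1.10 (adjusted p = 0.0295, SE 0.26). Tyrobp (DAP12) stood at 46.3, 50.1 and 41.7 CPM with Ad-C, 17.4, 17.0 and 17.7 CPM with Ad-Hif1a and 18.8, 17.0 and 28.4 CPM with Ad-Hif2a, with log2 fold changes of -1.41 (adjusted p = 0.00724, SE 0.21) and -1.13 (adjusted p = 0.0138, SE 0.21). In contrast to these, Fcgr4, another activating receptor, stood at 2.65, 1.96 and 2.19 CPM with Ad-C, 4.08, 2.27 and 3.29 CPM with Ad-Hif1a and 5.84, 3.66 and 5.68 CPM with Ad-Hif2a. It rose with Ad-Hif2a by 1.14 (adjusted p = 0.014, SE 0.22), with all 3 libraries above the Ad-C libraries, and its log2 fold change with Ad-Hif1a was 0.48 (adjusted p = 0.223, SE 0.22). This call was lost when any single Ad-C library or Ad-Hif2a replicate 1 was left out. Fcgr2b, Fcgr3 and Fcgr4 are similar in sequence and lie near each other, and how reads that fit several of them were counted is not stated, so their separate values are uncertain. Fcer1g, Fcgr1 and Trem2 passed the test in neither comparison, with log2 fold changes of -0.75, -0.81 and -1.60 with Ad-Hif1a and -0.43, -0.78 and -1.37 with Ad-Hif2a. Without Ad-Hif1a replicate 1 and Ad-Hif2a replicate 3, Trem2 fell by 1.88 (adjusted p = 1.05e-06) and 2.10 (adjusted p = 2.69e-07), and Fcer1g by 0.87 (adjusted p = 0.000121) and 0.87 (adjusted p = 0.000109). Trem2 and Fcer1g were highest, within each vector group, in these libraries, which were set aside after the data were seen. Larger falls without them were thus fixed in advance and add no support.

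Of the 4 secreted and lysosomal proteins, 2 fell with Ad-Hif1a and 1 with Ad-Hif2a. Lyz2, the most abundant member also per length of merged exons (1848 CPM per kb with Ad-C, against 117 CPM per kb for Cd68, the next), stood at 2365, 2556 and 2374 CPM with Ad-C, 1065, 1211 and 1118 CPM with Ad-Hif1a and 1108, 1333 and 1074 CPM with Ad-Hif2a. Its log2 fold changes were -1.11 (adjusted p = 0.00446, SE 0.15) and -1.06 (adjusted p = 0.0039, SE 0.15), and its count relative to Csf1r was 16.0 to 16.4 in the Ad-C libraries against 22.6 to 27.5 (Ad-Hif1a) and 25.0 to 30.0 (Ad-Hif2a). Lyz1, a near copy with 288 to 771 counts per library, may share reads with it. Ctss, the protease cathepsin S, stood at 129, 141 and 122 CPM with Ad-C, 81.8, 73.6 and 58.2 CPM with Ad-Hif1a and 70.0, 68.6 and 101 CPM with Ad-Hif2a. It fell with Ad-Hif1a by 0.88 (adjusted p = 0.0443, SE 0.22), a call lost in 9 of 28 alternative fits, and its log2 fold change with Ad-Hif2a was -0.72 (adjusted p = 0.0682, SE 0.22). F13a1, a coagulation factor XIII subunit of resident macrophages, stood at 3.20, 3.25 and 4.12 CPM with Ad-C, 1.53, 2.56 and 3.35 CPM with Ad-Hif1a and 2.30, 3.54 and 1.68 CPM with Ad-Hif2a, with overlapping groups and log2 fold changes of -0.54 (adjusted p = 0.371, SE 0.35) and -0.49 (adjusted p = 0.351, SE 0.36). Pf4, a platelet chemokine also made by macrophages, had 15 to 57 counts per library and log2 fold changes of -0.10 and 0.85, with 95% intervals of -1.58 to 1.38 and -0.63 to 2.33. Without Ad-Hif2a replicate 3 the values with Ad-Hif2a were -0.11 (adjusted p = 0.823) for F13a1 and 0.24 (adjusted p = 0.786) for Pf4.

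Of the lectin receptors, the oxidase and other surface proteins, 4 of 6 fell with Ad-Hif1a, while 3 fell and 1 rose with Ad-Hif2a. Cd84, a SLAM family receptor, stood at 47.6, 44.6 and 44.9 CPM with Ad-C, 9.01, 12.8 and 14.3 CPM with Ad-Hif1a and 12.6, 13.1 and 8.52 CPM with Ad-Hif2a, with log2 fold changes of -1.93 (adjusted p = 0.00371, SE 0.24) and -2.01 (adjusted p = 0.00244, SE 0.24). Clec7a, the β-glucan receptor dectin-1, stood at 7.18, 6.62 and 6.10 CPM with Ad-C, 2.04, 1.63 and 1.62 CPM with Ad-Hif1a and 2.12, 0.857 and 2.48 CPM with Ad-Hif2a and fell by 1.92 (adjusted p = 0.0127, SE 0.34) and 1.93 (adjusted p = 0.0104, SE 0.34). Clec4n, the mannan receptor dectin-2, went the other way. It stood at 5.02, 5.10 and 5.13 CPM with Ad-C, 6.46, 8.20 and 7.70 CPM with Ad-Hif1a and 9.08, 8.63 and 9.69 CPM with Ad-Hif2a, and it rose with Ad-Hif2a by 0.84 (adjusted p = 0.0206, SE 0.18), a call lost when any single Ad-C library, Ad-Hif1a replicate 2 or Ad-Hif2a replicate 1 was left out. With Ad-Hif1a its log2 fold change was 0.55 (adjusted p = 0.104, SE 0.18), and without both libraries that stand apart it rose by 0.67 (adjusted p = 0.022). Ad-Hif1a replicate 1 held the lowest Clec4n value of its group, so a larger rise without it was fixed in advance. Ms4a6c, a tetraspan surface protein with near relatives in its gene cluster that may share reads, stood at 27.9, 33.8 and 24.5 CPM with Ad-C, 12.7, 15.8 and 15.5 CPM with Ad-Hif1a and 15.7, 18.6 and 14.3 CPM with Ad-Hif2a, with log2 fold changes of -0.96 (adjusted p = 0.0109, SE 0.16) and -0.82 (adjusted p = 0.0156, SE 0.16). Cybb, the catalytic subunit of the phagocyte NADPH oxidase, fell by 0.58 (adjusted p = 0.0478, SE 0.15) with Ad-Hif1a, a call lost in 11 of 28 alternative fits, and had a log2 fold change of -0.30 (adjusted p = 0.193, SE 0.15) with Ad-Hif2a. Ms4a7 stood at 31.5, 35.0 and 25.8 CPM with Ad-C, 31.3, 23.8 and 14.7 CPM with Ad-Hif1a and 23.7, 19.4 and 46.5 CPM with Ad-Hif2a, highest in Ad-Hif2a replicate 3, and had log2 fold changes of -0.41 and -0.06. Without the pair of libraries that stand apart it fell by 0.60 (adjusted p = 0.00882) and 0.66 (adjusted p = 0.004). As the pair held the highest Ms4a7 value of each vector group, larger falls were fixed in advance and add no support.

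Both chemokine receptors fell with Ad-Hif1a, and 1 of them with Ad-Hif2a. Ccr2, the receptor by which monocytes follow Ccl2, had 38, 50 and 55 counts in the Ad-C libraries. It had 0, 1 and 2 counts in the Ad-Hif1a libraries and 0, 2 and 0 in the Ad-Hif2a libraries. By ratio of the summed counts per effective library size it was 44.4-fold lower with Ad-Hif1a (95% interval 14.9 to 218) and 63.0-fold lower with Ad-Hif2a (17.1 to 526), where the exact binomial intervals cover counting error only. The edgeR test gave adjusted p = 0.00522 and 0.00373, and the fitted log2 fold changes of such low counts depend on the prior count. Cx3cr1, the fractalkine receptor of resident macrophages, stood at 45.5, 50.2 and 47.6 CPM with Ad-C, 16.5, 14.7 and 14.1 CPM with Ad-Hif1a and 8.32, 15.7 and 33.2 CPM with Ad-Hif2a. It fell with Ad-Hif1a by 1.64 (adjusted p = 0.0399, SE 0.39), a call lost in 13 of 28 alternative fits, and with Ad-Hif2a its log2 fold change was -1.45 (adjusted p = 0.0504, SE 0.40). Ad-Hif2a replicate 3 lay above its fellow replicates, and without it the fall with Ad-Hif2a was 2.04 (adjusted p = 5.02e-05). Leaving out the highest library had to deepen the fall, so this value adds no support.

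**Figure D3:**
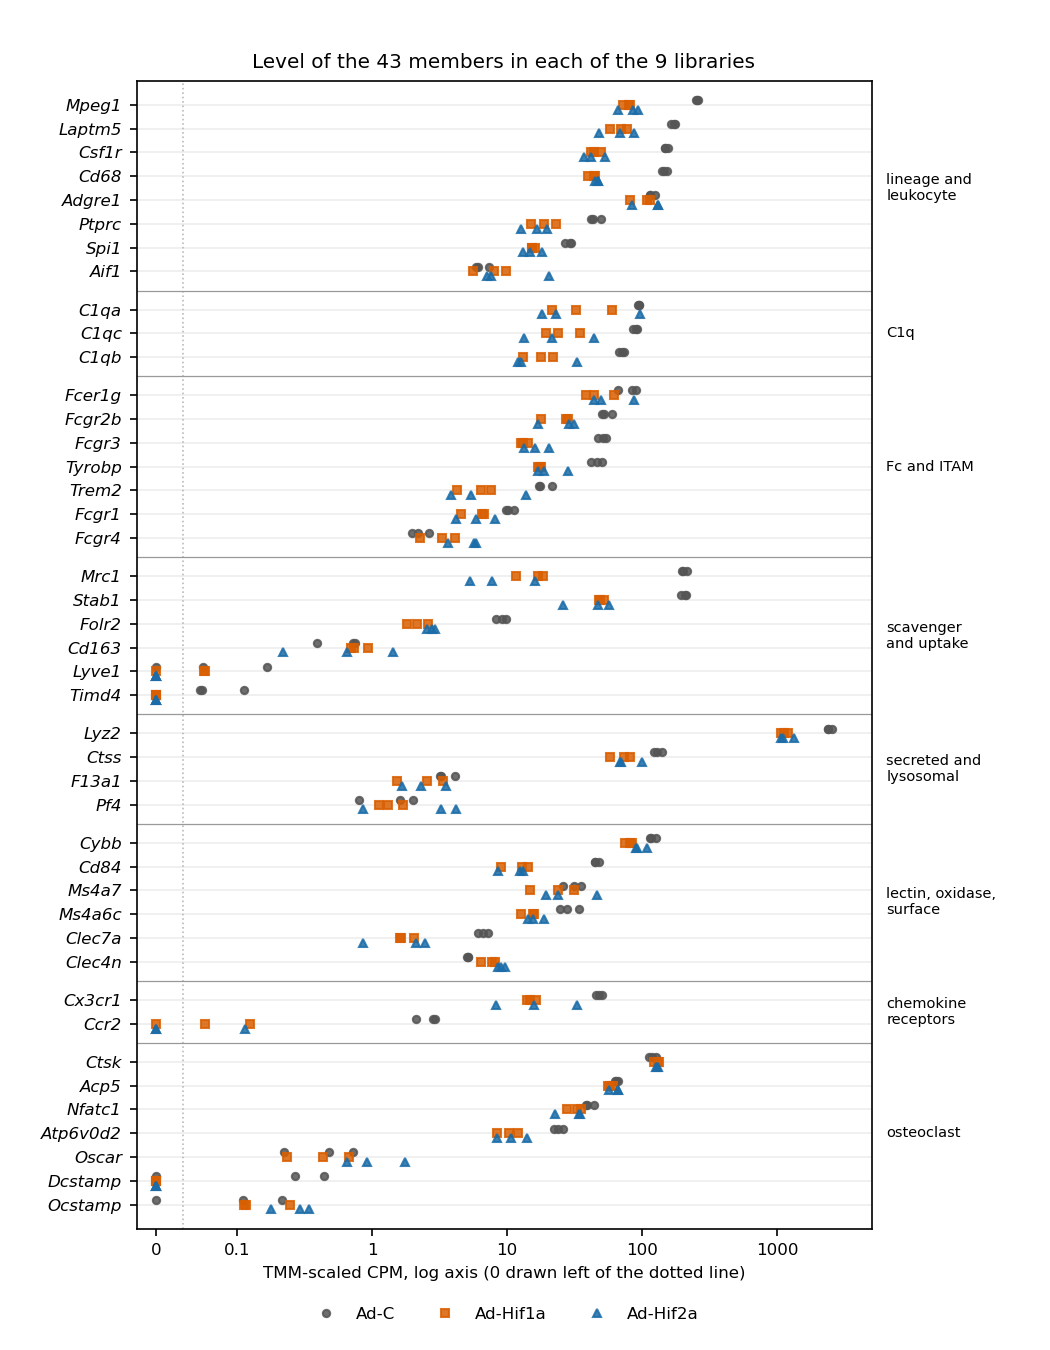
TMM-scaled CPM of the 43 members in each of the 9 libraries on a log axis, by role group and ordered within each group by the Ad-C mean; a level of 0 is drawn left of the dotted line. Ad-C libraries (circles) lie to the right of both vector groups for most macrophage members, and the 3 groups lie close together for Adgre1, Ctsk and Acp5.

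The 7 osteoclast genes held 1 member, Atp6v0d2, that passed the test. Acp5, the tartrate-resistant acid phosphatase (TRAP), stood at 66.3, 62.9 and 63.6 CPM with Ad-C, 57.7, 61.1 and 56.1 CPM with Ad-Hif1a and 66.0, 56.4 and 66.6 CPM with Ad-Hif2a. The log2 fold changes were -0.14 (adjusted p = 0.553, SE 0.14) and -0.03 (adjusted p = 0.891, SE 0.14), with 95% intervals of -0.47 to 0.19 and -0.36 to 0.30, which do not reach the falls of Csf1r or Cd68. Ctsk, which degrades collagen in the resorption pit and whose promoter stands among those above, was at 112, 127 and 117 CPM with Ad-C, 131, 135 and 124 CPM with Ad-Hif1a and 129.6, 130.1 and 128 CPM with Ad-Hif2a, with log2 fold changes of 0.13 (adjusted p = 0.557, SE 0.13) and 0.12 (adjusted p = 0.517, SE 0.13) and intervals of -0.18 to 0.43 and -0.18 to 0.42. The count of Ctsk relative to Csf1r was 0.762 to 0.813 in the Ad-C libraries and higher in all others, at 2.50 to 3.12 (Ad-Hif1a) and 2.45 to 3.51 (Ad-Hif2a). As the cells that made each RNA were not identified, this ratio does not compare osteoclasts with macrophages. Atp6v0d2, a subunit of the vacuolar proton pump that is needed for fusion of osteoclast precursors and is also made by macrophages, stood at 25.8, 23.7 and 22.3 CPM with Ad-C, 8.38, 12.1 and 10.3 CPM with Ad-Hif1a and 8.43, 14.0 and 10.6 CPM with Ad-Hif2a. It fell by 1.25 (adjusted p = 0.0089, SE 0.20) and 1.15 (adjusted p = 0.01, SE 0.20). Its call was lost with both vectors when Ad-C replicate 1 or 3 was left out, with Ad-Hif1a also for Ad-Hif1a replicate 1 or 2, and with Ad-Hif2a for Ad-Hif2a replicate 1. In those fits 0 of 5 osteoclast members were called.

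Nfatc1, the transcription factor that commits precursors to the osteoclast fate and that is also active in other cells, stood at 39.2, 38.4 and 44.4 CPM with Ad-C, 27.6, 33.2 and 35.0 CPM with Ad-Hif1a and 34.1, 34.9 and 22.8 CPM with Ad-Hif2a. It lay below the Ad-C libraries in all vector libraries, with log2 fold changes of -0.35 (adjusted p = 0.335, SE 0.21) and -0.42 (adjusted p = 0.206, SE 0.21). Leaving out Ad-Hif2a replicate 3 gave -0.35 (adjusted p = 0.041) and -0.17 (adjusted p = 0.435). The fold change with Ad-Hif1a thus did not move, and that fit called 36.4% of all genes with Ad-Hif1a. Nfatc1 was called with Ad-Hif1a in 1 of 28 alternative fits. Without both libraries that stand apart the values were -0.26 (adjusted p = 0.162) and -0.18 (adjusted p = 0.361). Oscar, an immune receptor that co-stimulates osteoclast precursors, had 13, 4 and 9 counts in the Ad-C libraries, 12, 4 and 7 in the Ad-Hif1a libraries and 11, 16 and 24 in the Ad-Hif2a libraries. Its log2 fold change was -0.06 (adjusted p = 0.954, SE 0.58) with Ad-Hif1a and 1.26 (adjusted p = 0.155, SE 0.55) with Ad-Hif2a, the latter 0.82 (adjusted p = 0.39) without Ad-Hif2a replicate 3. Dcstamp, needed for the fusion of precursors into multinucleated cells, had 8, 0 and 5 counts in the Ad-C libraries and 0 in all 6 vector libraries. The exact binomial 95% interval of the summed counts began at 2.84-fold lower with Ad-Hif1a and 2.69-fold lower with Ad-Hif2a, which covers counting error only, and 1 Ad-C library also had no count. Ocstamp, a second fusion gene, had 2, 0 and 4 counts in the Ad-C libraries, 2, 2 and 4 in the Ad-Hif1a libraries and 3, 6 and 4 in the Ad-Hif2a libraries. Both fusion genes missed the filter on low counts and were not tested.

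Between Ad-Hif2a and Ad-Hif1a, 0 of the 39 members tested differed by the test of edgeR, 2 had an unadjusted p under 0.05, and DESeq2 called 0 as well. Among all 14413 genes the same test called 0 (0%), 338 had an unadjusted p under 0.05 and DESeq2 called 19. The libraries of Ad-Hif2a all lay above those of Ad-Hif1a for 3 macrophage members (3.07% of all genes) and all below for 0 (3.21%). The members with an unadjusted p under 0.05 were Fcgr4, with a log2 difference of 0.66 (adjusted p = 1.0, SE 0.21), and Oscar, with 1.32 (adjusted p = 1.0, SE 0.55), both higher with Ad-Hif2a. For Csf1r the 95% interval of the difference was -0.42 to 0.32 and for Cd68 -0.20 to 0.43 on the log2 scale. For Mrc1, lower with Ad-Hif2a, it was -1.54 to 0.01, and for C1qa, with its uneven replicates, -1.55 to 1.66. Differences within these intervals were not detectable with 3 libraries per group.

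Some members were set high or low by single libraries, and exon length went with this pattern. Across the 39 members tested, the log2 ratio of Ad-Hif2a replicate 3 to the mean of the other 2 Ad-Hif2a libraries had a Spearman correlation of -0.55 with the length of merged exons, and that of Ad-Hif1a replicate 1 to its fellow replicates had one of -0.53. Over the 13595 genes tested with a known length the correlations were -0.42 and -0.44, so the pattern was seen over all genes as well. Other libraries had correlations of like size and opposite sign, at 0.64 (0.51 over all genes) for Ad-Hif2a replicate 2 and 0.55 (0.42) for Ad-Hif1a replicate 3, each against the mean of its own group's other libraries. These correlations are across genes, which share libraries and are not independent replicates. In Ad-Hif2a replicate 3 the 16 members under 2 kb lay above the other 2 libraries by a median of 0.59 and the 23 longer members below by a median of 0.16 on the log2 scale. C1qa, Fcer1g and Aif1 are short, while Trem2 and Cx3cr1, which were also high in this library, are not. The low mitochondrial share of both libraries stands beside this, and its part in the result was not tested.

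**Figure D4:**
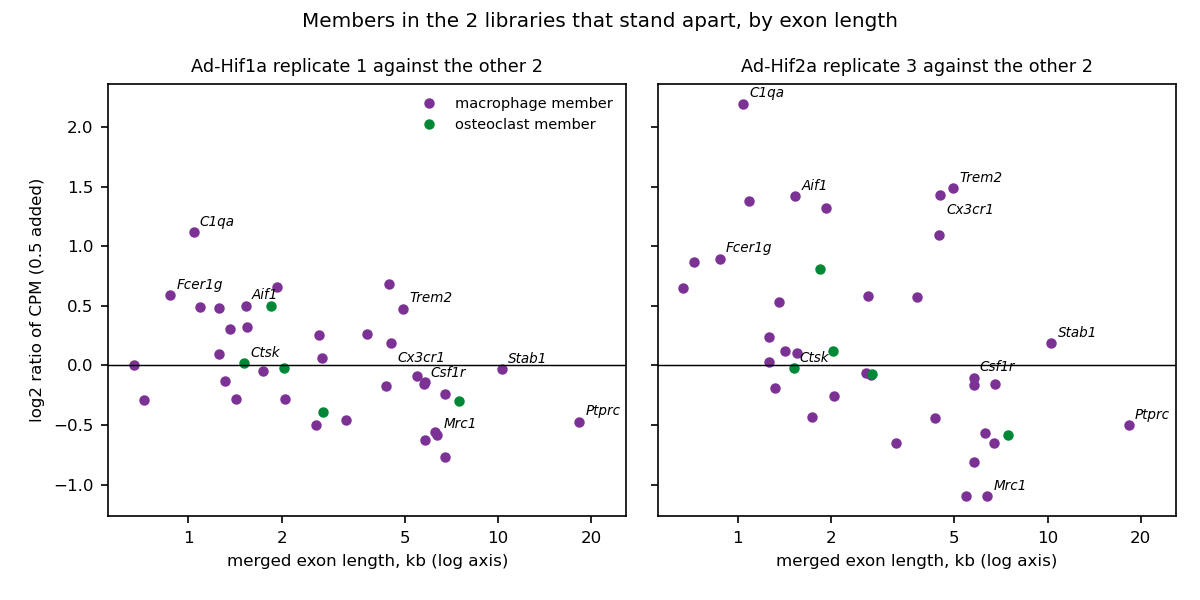
Log2 ratio of CPM (0.5 added) of each of the 39 tested members in the libraries that stand apart, against the mean of the other 2 libraries of the same group, plotted over the length of merged exons on a log axis. Short members such as C1qa and Fcer1g lie above 0 and long members such as Mrc1 and Ptprc below 0 in both panels.

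The ligands and receptors through which osteoblasts feed this lineage moved in both directions. Of 21 tested genes of the CSF-1 and RANK pathways, 4 rose and 2 fell with Ad-Hif1a, and 6 rose and 2 fell with Ad-Hif2a. These were 28.6% and 38.1% of the list, against 11.3% and 15.6% of all genes tested. Csf1 stood at 365, 344 and 381 CPM with Ad-C, 302, 322 and 381 CPM with Ad-Hif1a and 366, 369 and 263 CPM with Ad-Hif2a, with log2 fold changes of -0.12 (adjusted p = 0.719, SE 0.19) and -0.13 (adjusted p = 0.641, SE 0.19), and Il34 had log2 fold changes of 0.33 (adjusted p = 0.432, SE 0.25) and 0.58 (adjusted p = 0.149, SE 0.25). Tnfsf11 (RANKL) rose from 0.828, 0.953 and 1.82 CPM with Ad-C to 30.0, 35.8 and 38.1 CPM with Ad-Hif1a and 45.8, 46.4 and 36.8 CPM with Ad-Hif2a, by 4.85 (adjusted p = 0.000287, SE 0.31) and 5.19 (adjusted p = 0.000177, SE 0.31) on the log2 scale. Its decoy Tnfrsf11b had log2 fold changes of 0.20 (adjusted p = 0.76, SE 0.39) and -0.31 (adjusted p = 0.577, SE 0.39). RANK itself, Tnfrsf11a, which precursors and macrophages carry, stood at 9.83, 13.01 and 10.9 CPM with Ad-C, 2.38, 4.65 and 4.54 CPM with Ad-Hif1a and 3.77, 4.57 and 4.15 CPM with Ad-Hif2a. It fell by 1.58 (adjusted p = 0.00543, SE 0.22) and 1.43 (adjusted p = 0.00608, SE 0.22), as did Sirpa, the myeloid receptor for CD47, by 1.01 (adjusted p = 0.00511, SE 0.14) and 1.17 (adjusted p = 0.00221, SE 0.14). The ligand of RANK was thus higher, and its receptor lower, in all 6 vector libraries than in the Ad-C libraries.

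Further genes of the lineage were counted in lists that hold no member. Of all genes tested, 11.3% were called with Ad-Hif1a and 15.6% with Ad-Hif2a. Of 37 tested genes of macrophage identity, 21 fell and 1 rose with Ad-Hif1a, and 20 fell and 1 rose with Ad-Hif2a, with medians of -0.91 and -0.89. The lowest p-values among them were those of Nckap1l, a leukocyte regulator of actin, with log2 fold changes of -1.45 and -1.62, the endosomal RNA sensor Tlr13 with -2.10 and -2.23, and the nucleotide receptor P2ry12 with -3.17 and -2.39. The 1 that rose was Cd52 in both comparisons. Of 18 tested genes of macrophage states, 4 rose and 4 fell with Ad-Hif1a, and 6 rose and 4 fell with Ad-Hif2a. The scavenger receptor Marco rose from 1.60, 1.51 and 1.016 CPM to 103, 65.3 and 44.5 CPM with Ad-Hif1a and 101, 53.6 and 151 CPM with Ad-Hif2a, and Nos2, the inducible nitric oxide synthase, from 0.331, 0.336 and 0.267 CPM to 12.1, 17.5 and 17.2 CPM and 96.2, 45.4 and 27.2 CPM. Cd40, a costimulatory receptor, rose from 1.21 ± 0.0836 CPM (SD, n = 3) to 4.10 ± 0.596 CPM and 5.67 ± 1.66 CPM. The others that rose were Tnf with both vectors, and Il1b and Arg1 with Ad-Hif2a. Which cells of the culture made these RNAs was not tested. The 4 that fell in both comparisons were the scavenger receptor Msr1, the uptake receptor Mertk, Gpnmb and Lgals3, which are named here after their values were seen. Of 14 tested later osteoclast genes, which act in resorption and are not all limited to osteoclasts, 2 rose and 0 fell with Ad-Hif1a, and 3 rose and 1 fell with Ad-Hif2a. The shares called were 14.3% and 28.6%, the former near that of all genes. Mmp9, a gelatinase, rose by 3.14 (adjusted p = 0.00667, SE 0.47) and 4.32 (adjusted p = 0.00142, SE 0.46) from 0.276 ± 0.241 CPM (SD, n = 3) in the Ad-C libraries, and the integrin chain Itgb3 by 0.88 (adjusted p = 0.0464, SE 0.22) and 1.21 (adjusted p = 0.0122, SE 0.22).

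Markers of other cells were counted beside the members, where 11.3% (Ad-Hif1a) and 15.6% (Ad-Hif2a) of all genes tested were called. T and NK cell markers were at 0 in every library for 6 of 8, and the one tested, Cd4, which mouse macrophages can also carry, fell by 2.95 (adjusted p = 0.0159, SE 0.54) and 3.10 (adjusted p = 0.0112, SE 0.56). Neutrophil markers summed to 2.87 to 3.93 CPM in the Ad-C libraries, 7.33 to 9.74 CPM (Ad-Hif1a) and 9.66 to 15.9 CPM (Ad-Hif2a), with 3 of 10 at 0 throughout, S100a9 among them. The antimicrobial peptide gene Camp rose from 0.0719 ± 0.0815 to 5.01 ± 1.01 and 8.28 ± 2.05 CPM, and 2 of the 3 tested rose with each vector. Dendritic cell markers summed to 14.8 to 16.5 CPM, 24.9 to 43.1 CPM and 17.8 to 42.3 CPM, where the integrin chain Itgax fell by 4.37 (adjusted p = 0.00251, SE 0.50) and 3.11 (adjusted p = 0.00502, SE 0.46) and Cd74, the invariant chain of MHC class II, rose by 2.42 (adjusted p = 0.0086, SE 0.39) and 2.15 (adjusted p = 0.0114, SE 0.39). Of 5 B cell markers 1 was tested and not called, of 8 mast cell and basophil markers the only one tested, Mcpt8, rose from 0.404 ± 0.136 to 3.52 ± 1.90 and 9.58 ± 3.99 CPM (SD, n = 3), and erythroid markers, 5 of 7 at 0 throughout, summed to at most 1.82 CPM. Endothelial markers summed to 17.3 to 29.1 CPM over all libraries, and of 4 tested 0 were called with Ad-Hif1a while 2 rose and 1 fell with Ad-Hif2a.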

How the data were processed

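RNA-seq was made from total RNA in 9 libraries of primary calvarial pre-osteoblasts with the CORALL RNA-seq V2 kit. The values used are counts per gene symbol, whole numbers as deposited by the authors, not normalized; the submitters' processing notes name the build GRCm39 and the tools Salmon, STAR, fastp and bcl2fastq (2.20.0.422) but give neither roles nor settings. Whether strand was used in counting, and how reads shared by near copies were assigned, is not given in the sources used here.

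Samples were grouped by their titles. Genes passing filterByExpr of edgeR 4.0.16 on the 3 groups (14413 of 24731 with a count) were scaled by TMM and fitted on all 9 libraries with the robust quasi-likelihood model in R 4.3.3 (limma 3.58.1, statmod 1.5.0), with group and replicate number as terms because the study's methods name a paired test. Adjusted p-values are Benjamini-Hochberg over all genes tested, threshold 0.05, and intervals are 95%. The SE of a log2 fold change is its size divided by the square root of the F statistic of the test. The intervals of log2 fold changes rest on this SE, which is approximate, above all at low counts. Members, role groups, lists and motifs were chosen with earlier results of these data known. Of each role group of macrophage members the up to 3 with the lowest p, and all osteoclast members, are given with every library; of other lists up to 3 by lowest p. Mitochondrial transcripts were counted under the symbols of these files (ND1 and the like) as well as those starting mt-. Exon lengths are from GENCODE M21 (GRCm38). The test was tried on simulated counts. Alternatives were a fit without the replicate block, other scalings, DESeq2 1.42.0, other filters, the 6 libraries compared alone and each library left out; leaving out both libraries that stand apart, and single libraries without the replicate block, were chosen after seeing the data.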

Additional observations from a re-analysis of the deposited data

How the results depend on the processing

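Of the members called, 8 of 23 with Ad-Hif1a and 10 of 22 with Ad-Hif2a stayed past the threshold under each of 28 alternatives that tested them, and all 23 and 22 kept their sign. The 8 were Cd68, Csf1r, Mpeg1, Fcgr3, Mrc1, Stab1, Folr2 and Cd84, joined with Ad-Hif2a by Lyz2 and Ccr2. Other scalings, filters, DESeq2 and the 6 libraries compared alone called 18 to 27 macrophage members with Ad-Hif1a and 20 to 24 for Ad-Hif2a. Leaving out each library in turn gave 8 to 28 macrophage members with Ad-Hif1a (most without Ad-Hif2a replicate 3) and 10 to 27 for Ad-Hif2a. Osteoclast members called numbered 0 to 2 and 0 to 1, and 0 of either class differed between the vectors. The share of all genes called with Ad-Hif1a and Ad-Hif2a, 11.3% and 15.6%, was 17.1% and 24.5% with DESeq2, 33.5% and 12.1% with the 6 libraries compared alone, and 6.2% and 8.88% of the genes tested without a filter. With single libraries left out it ran from 2.99% to 36.4% and from 4.67% to 22.6%. The cause was not tested. The summed macrophage level moved by less than 1 SD under other scalings.

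The replicate numbers were not shown to pair the samples. Deviations of same-numbered libraries correlated at -0.57 to 0.10. Ad-Hif1a replicate 1 correlated best with Ad-Hif2a replicate 3 (0.61), and Ad-Hif1a replicate 3 with Ad-Hif2a replicate 2 (0.54). Without the replicate block 24 and 23 macrophage members and 1 and 1 osteoclast members were called with Ad-Hif1a and Ad-Hif2a, of 16.5% and 24% of all genes. Single libraries left out without the block gave 19 to 27 and 19 to 26 macrophage members. Members with few counts, such as Lyve1, Timd4, Dcstamp, Ocstamp and Oscar, are limited by depth.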
